A study of Homo sapiens with 15 samples.

Results

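The proteasome subunit genes were examined in IGROV-CP20 cells, a cisplatin-resistant human ovarian cancer line whose cell type is spelled IGROVF-CP20 in the sample records. They were taken by symbol, as the protein-coding genes named PSMA, PSMB, PSMC or PSMD with a number together with PSME1 to PSME4, which gave 43 genes in GENCODE 29, against 47634 rows in each count table. An identifier in the tables was found for 42 of them, PSMB3 is not analysed here, and 37 passed the filter on low counts and were tested among 11113 genes. RNA was read by QuantSeq, a 3′ end method that yields about 1 fragment per transcript, in 15 libraries that form 5 conditions with 3 biological replicates each. Untreated cells received neither drug nor cisplatin, and cisplatin alone was given at 50 µM for 24 h. The remaining conditions had the same cisplatin dose and time after 24 h with 10 µM Tranilast, an antiallergic compound, Telmisartan, an angiotensin receptor blocker, or Amphotericin B, an antifungal polyene. All conditions used this 1 resistant line, and neither a drug without cisplatin nor the sensitive parental line is analysed here. The study asked whether the drugs act on routes of platinum resistance other than the copper transporter ATP7B.

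The proteasome degrades proteins that carry ubiquitin. Its core particle is a barrel of alpha subunits (PSMA), which form the gate, and beta subunits (PSMB), of which PSMB5, PSMB6 and PSMB7 cut the substrate. The regulatory particle that caps the barrel has a base, with the ATPases PSMC1 to PSMC6 that unfold the substrate and the scaffolds PSMD1 and PSMD2, and a lid that includes PSMD7 and the deubiquitinase PSMD14. PSMD5, PSMD9 and PSMD10 are chaperones of base assembly and not subunits of the finished particle, and PSME1 to PSME4 form alternative activators. In human cells the transcription factor NRF1 (gene NFE2L1) raises subunit genes together when proteasome activity is short, through antioxidant response elements, while interferon raises PSMB8, PSMB9 and PSMB10, which replace the catalytic beta subunits, and PSME1 and PSME2.

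These elements were looked for in the RefSeq promoter windows of GRCh38.p14, which reach from 250 bases before to 50 bases after an annotated start, on both strands. Windows were matched by symbol for 38 of the 43 genes and not for PSMA7, PSMB1, PSMB6, PSMB7 and PSMD4. Some genes have several starts, so that the 38 genes have 45 windows. The antioxidant response element core, TGACNNNGC, was present for 13 of the 38 genes (34.2%) against 16.1% of all 27305 genes with a window, and in 28.9% of their windows against 13.3% of all windows. Of 14 genes that rose with cisplatin and have a window, 5 held it, as did both genes that fell, PSMD1 and PSME4. The windows of PSMD3, PSMD12, PSMC5 and PSME4 are shown because the first 3 genes rose with cisplatin and the last fell. They lie at chr17:39980755-39980793 (plus strand), chr17:67366719-67366757 (minus strand), chr17:63827649-63827687 (plus strand) and chr2:53971004-53971042 (minus strand). Each is written 5′ to 3′ on the strand of the gene, with the element in capitals.
PSMD3: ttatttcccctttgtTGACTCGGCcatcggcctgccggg
PSMD12: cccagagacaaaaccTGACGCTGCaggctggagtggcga
PSMC5: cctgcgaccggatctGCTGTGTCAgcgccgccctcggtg
PSME4: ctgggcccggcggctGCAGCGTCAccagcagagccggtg

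For PSMC5 and PSME4 the element reads on the opposite strand. The interferon-stimulated element was searched as GAAA, any 2 bases and GAAA again. It was present for 6 of the 38 genes (15.8%) against 4.38% of all genes, and in 13.3% of the genes' windows against 3.57% of all windows. The 6 genes were PSMA4, PSMB4, PSMB8, PSMB10, PSME1 and PSME2. The copies of the inducible subunits PSMB8 and PSMB10 and of the activator genes PSME1 and PSME2 are shown because all 4 have the same core. They lie at chr6:32844027-32844066 (minus strand), chr16:67936847-67936886 (minus strand), chr14:24136184-24136223 (plus strand) and chr14:24146614-24146653 (minus strand).
PSMB8: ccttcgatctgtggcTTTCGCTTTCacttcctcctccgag
PSMB10: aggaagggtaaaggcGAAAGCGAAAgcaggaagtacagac
PSME1: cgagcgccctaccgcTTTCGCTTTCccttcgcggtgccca
PSME2: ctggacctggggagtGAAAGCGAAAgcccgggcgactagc

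In PSMB8 and PSME1 the core reads on the opposite strand. The sequence CCAAT was present for 19 of the 38 genes (50.0%) against 39.7% of all genes. These matches are a description of letters in the windows, and binding was not measured.

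The tested set held 13 of 19 core genes, all 17 regulatory particle genes, the 3 chaperones and the 4 activators. Among the core genes that were not tested, the inducible PSMB8 (chr6:32840717-32844703 in GENCODE 29 on GRCh38) had no count in any of the 15 libraries. PSMB9 next to it had 0 to 7 counts per library and 36 in all, with 0.638, 0.288 and 1.78 CPM (counts scaled to a common library size, with TMM factors) in the untreated replicates. PSMB10, on chromosome 16, had counts only in Telmisartan replicate 3, where there were 4. The testis form PSMA8 had none, and the thymus form PSMB11 had at most 2 counts in a library. A count of 0 allows a share of up to 8.53e-05% to 0.000199% of a library (3 counts), which covers counting error only. For PSMB8 and PSMB9 the low counts also go with their place in the genome. In the stretch of chromosome 6 from GABBR1 to KIFC1, which holds the major histocompatibility genes, 88 of 151 protein-coding genes (58.3%) had no count and 14 (9.27%) were tested, against 19.8% without a count and 52.4% tested on the rest of the chromosome. The part of the counting in these zeros was not tested, so the level of PSMB8 and PSMB9 cannot be read from them.

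The 15 libraries held between 1510620 (Amphotericin B) and 3517041 (Tranilast) counts. The share taken by the mitochondrial ribosomal RNA genes MT-RNR1 and MT-RNR2 was 1.79% to 2.20% in untreated cells and 2.10% to 2.53% with Tranilast. It was 13.7%, 5.61% and 3.41% in the cisplatin replicates 1, 2 and 3, 10.8%, 12.9% and 3.61% with Telmisartan, and 12.3% to 14.8% with Amphotericin B. TMM factors, which scale libraries to each other, ranged from 0.721 in cisplatin replicate 1 to 1.27 in Tranilast replicate 3. Of 8 epithelial markers, KRT8, KRT18 and EPCAM were detected while PAX8, MUC16 and KRT7 were at or near 0. KRT19 and CDH1 were low, with means of 2.09 and 2.24 CPM in untreated cells. The list summed to 148 to 154 CPM in untreated cells and 147 to 253 CPM in the treated libraries. These sums hide opposite moves. With cisplatin the mean of KRT18 went from 89.1 to 139 CPM and that of CDH1 to 8.57 CPM, while EPCAM went from 41.6 to 21.7 CPM. Of the 5 tested markers, 2 rose and 1 fell with cisplatin (21.1% and 23.6% of all genes). Of 5 immune markers, CD3E was at 0 in every library and PTPRC accounted for most of 65.0 to 76.9 CPM in untreated cells, against 4.37 to 22.6 CPM in the treated libraries. The fibroblast list summed to 17.1 to 45.8 CPM and the endothelial list to at most 0.288 CPM in any library. The part of these differences in the results below was not tested. RNA came from whole cultures, so a change in which cells were present and a change in RNA per cell cannot be told apart.

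PSMD7, a lid subunit and the partner of PSMD14 (chr16:74296775-74306288, plus strand), stood at 277, 285 and 272 CPM in untreated cells, at 534, 546 and 406 CPM with cisplatin, and at 307, 306 and 284 CPM with Tranilast and cisplatin. With Telmisartan it stood at 466, 432 and 307 CPM, and with Amphotericin B at 500, 486 and 565 CPM. All 3 cisplatin libraries lay above all untreated and all Tranilast libraries, where 53.5% and 40.3% of all genes did not overlap. The Amphotericin B libraries lay in the upper part of the cisplatin range or above it, and Telmisartan replicate 3 lay with the Tranilast libraries. It rose with cisplatin against untreated cells (log2 fold change 0.83 ± 0.182, SE, adjusted p = 0.00151, edgeR) and fell by 0.73 with Tranilast against cisplatin alone (SE 0.182, adjusted p = 0.0101, edgeR). In order of the mean, the levels were 517 ± 42.1 CPM with Amphotericin B (SD, n = 3), 496 ± 77.5 with cisplatin, 402 ± 83.4 with Telmisartan, 299 ± 13.04 with Tranilast and 278 ± 6.45 in untreated cells. Neighbours in that order overlapped, except that the lowest Telmisartan library (307.4) lay just above the highest Tranilast one (307.03). The 5 genes whose log2 CPM followed that of PSMD7 most closely over the 15 libraries were PRELID1 (Pearson r = 0.976), ZDHHC24 (0.975), MT-CO1 (0.974), NENF (0.973) and MTCO3P12 (0.973). The ATPase gene PSMC4 was the closest proteasome gene, at rank 10 (0.969), followed by PSMB5 at rank 115 (0.941). The points share the conditions and library composition, and MT-CO1 is a mitochondrial transcript.

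**Figure D1:**
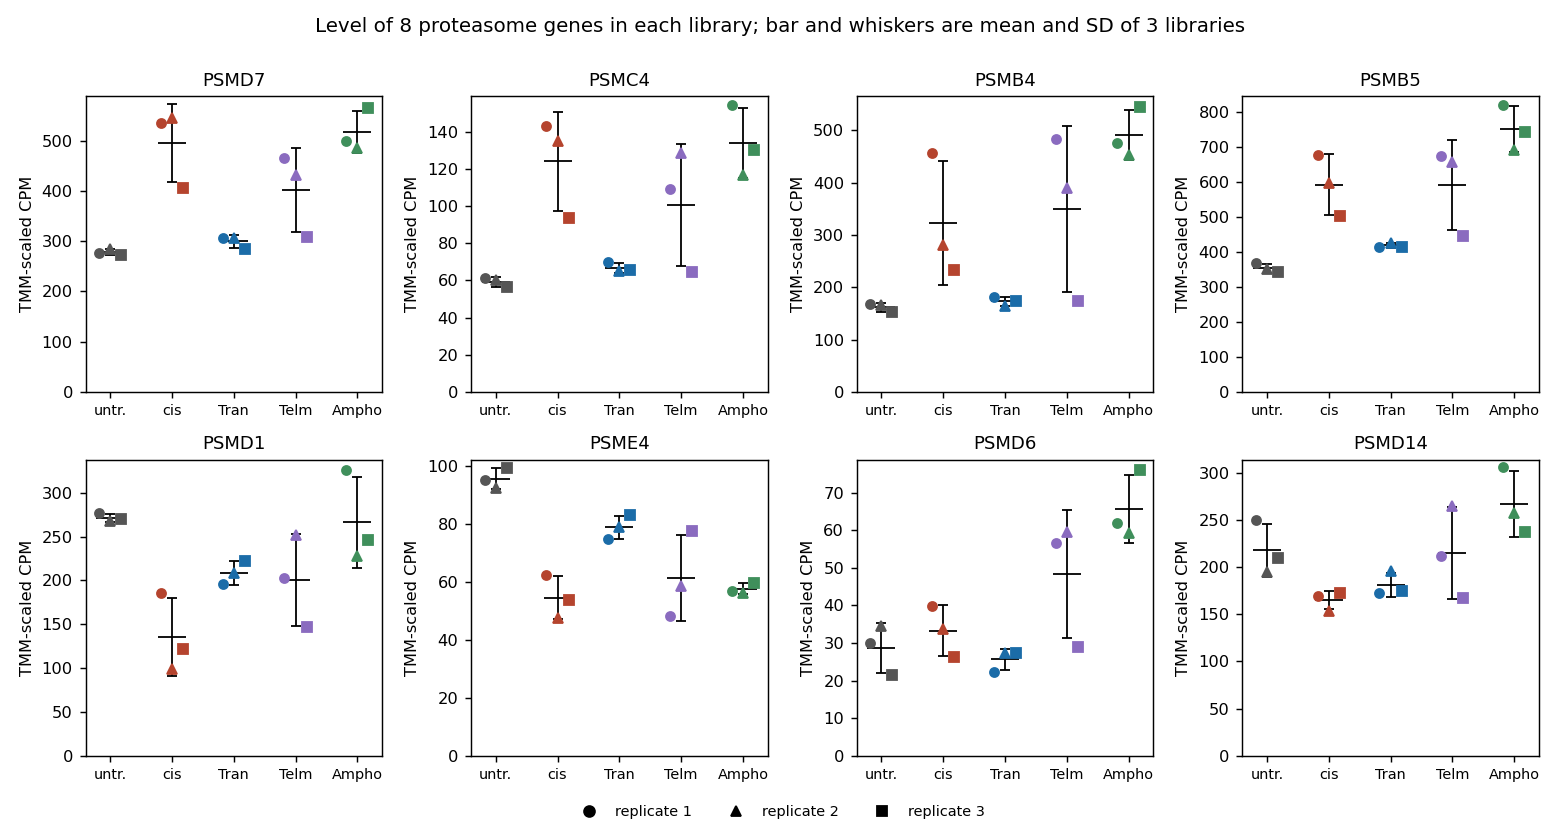
TMM-scaled CPM (vertical axis) of 8 proteasome genes in each of the 15 libraries, by condition (horizontal axis: untreated, cisplatin, and Tranilast, Telmisartan or Amphotericin B before cisplatin). Symbols mark replicates 1, 2 and 3, the horizontal bar is the mean and the whiskers the SD of 3 libraries. PSMD7 rose from 272 to 285 CPM in untreated cells to 406 to 546 CPM with cisplatin, whereas PSMD1 and PSME4 fell.

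Cisplatin was first compared with untreated cells. Of the 37 tested proteasome genes, 15 rose and 2 fell at an adjusted p of 0.05, and the remaining 20 did not pass (edgeR quasi-likelihood test, Benjamini-Hochberg over all genes). Over all genes tested, 21.1% rose and 23.6% fell. The genes that rose were 3 alpha subunits (PSMA2, PSMA5, PSMA6), 2 beta subunits (PSMB4, PSMB5), 3 ATPases (PSMC3, PSMC4, PSMC5), the base subunits PSMD2 and PSMD4, the lid subunits PSMD3, PSMD7, PSMD8 and PSMD12, and the activator PSME2. The genes that fell were the base scaffold PSMD1 and the activator PSME4. None of the 3 chaperones passed. The median log2 fold change was 0.46 over the 13 core genes and 0.57 over the 17 regulatory genes, against -0.01 over all genes. With scaling by library size alone these medians were 0.06 and 0.20, with a covariate for the MT-RNR1 and MT-RNR2 percentage -0.04 and 0.345, and with an offset for gene span the regulatory median was 0.21.

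The 3 largest increases past the threshold were those of PSMA6, PSMC4 and PSMB4. PSMC4, an ATPase of the base (chr19:39971005-39981441), had 61.5, 60.1 and 56.3 CPM in untreated cells and 143, 135 and 93.7 CPM with cisplatin. The groups did not overlap, as in 53.5% of all genes, and the log2 fold change was 1.06 ± 0.225 (SE, adjusted p = 0.00117, edgeR). PSMB4, a beta subunit of the core (chr1:151399534-151401944), had 167, 166 and 152 CPM in untreated cells and 457, 280 and 232 CPM with cisplatin, with replicate 1 far above the others. Its log2 fold change was 0.997 ± 0.287 (adjusted p = 0.00961, edgeR). PSMA6, an alpha subunit, had the largest value, 1.42 ± 0.477 (adjusted p = 0.0222, edgeR), on the fewest reads. It had 1.91, 2.88 and 2.04 CPM in untreated cells and 8.96, 7.36 and 2.78 CPM with cisplatin, so that the groups overlapped, and only 144 counts over the 15 libraries, to which the pseudogene PSMA6P1 adds 25 of its own.

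Both genes that fell have long gene bodies. PSMD1, which spans 116 kb (chr2:231056864-231172827), had 277, 268 and 270 CPM in untreated cells and 185, 99.1 and 122 CPM with cisplatin. It fell by 1.01 on the log2 scale (SE 0.229, adjusted p = 0.00204, edgeR), with no overlap between the groups, as in 53.5% of all genes. PSME4, the large nuclear activator, spans 107 kb (chr2:53864067-53970840) and had 95.0, 92.4 and 99.3 CPM in untreated cells and 62.2, 47.6 and 53.6 CPM with cisplatin. It fell by 0.81 on the log2 scale (SE 0.183, adjusted p = 0.00184, edgeR). Within libraries, where scaling does not enter, both were also lower relative to PSMD7, which rose. There were 94.1 to 100.0 PSMD1 counts per 100 PSMD7 counts in the untreated libraries and 18.1 to 34.7 in the cisplatin libraries, and 32.4 to 36.5 PSME4 counts against 8.72 to 13.2.

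Of the catalytic subunits, PSMB5 rose while PSMB6 and PSMB7 did not pass the test. PSMB5, which carries the chymotrypsin-like site, had 369, 350 and 344 CPM in untreated cells and 677, 598 and 503 CPM with cisplatin, a log2 fold change of 0.74 ± 0.186 (adjusted p = 0.00396, edgeR). PSMB6, with the caspase-like site, had 135, 129 and 131 CPM against 257, 160 and 127 CPM (0.46 ± 0.296, adjusted p = 0.216, edgeR). PSMB7, with the trypsin-like site, had 518, 472 and 507 CPM against 1158, 654 and 485 CPM (0.62 ± 0.317, adjusted p = 0.122, edgeR). In both, cisplatin replicate 1 was the highest and replicate 3 lay within or below the range of the untreated libraries. The count of genes that rose was 9 without cisplatin replicate 1, cisplatin replicate 2 or untreated replicate 1, and 7 without untreated replicate 3. With scaling by library size alone, which moves the median of all genes from -0.01 to -0.36, 6 rose and 3 fell, while the median over the 37 genes remained above 0, at 0.12.

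**Figure D2:**
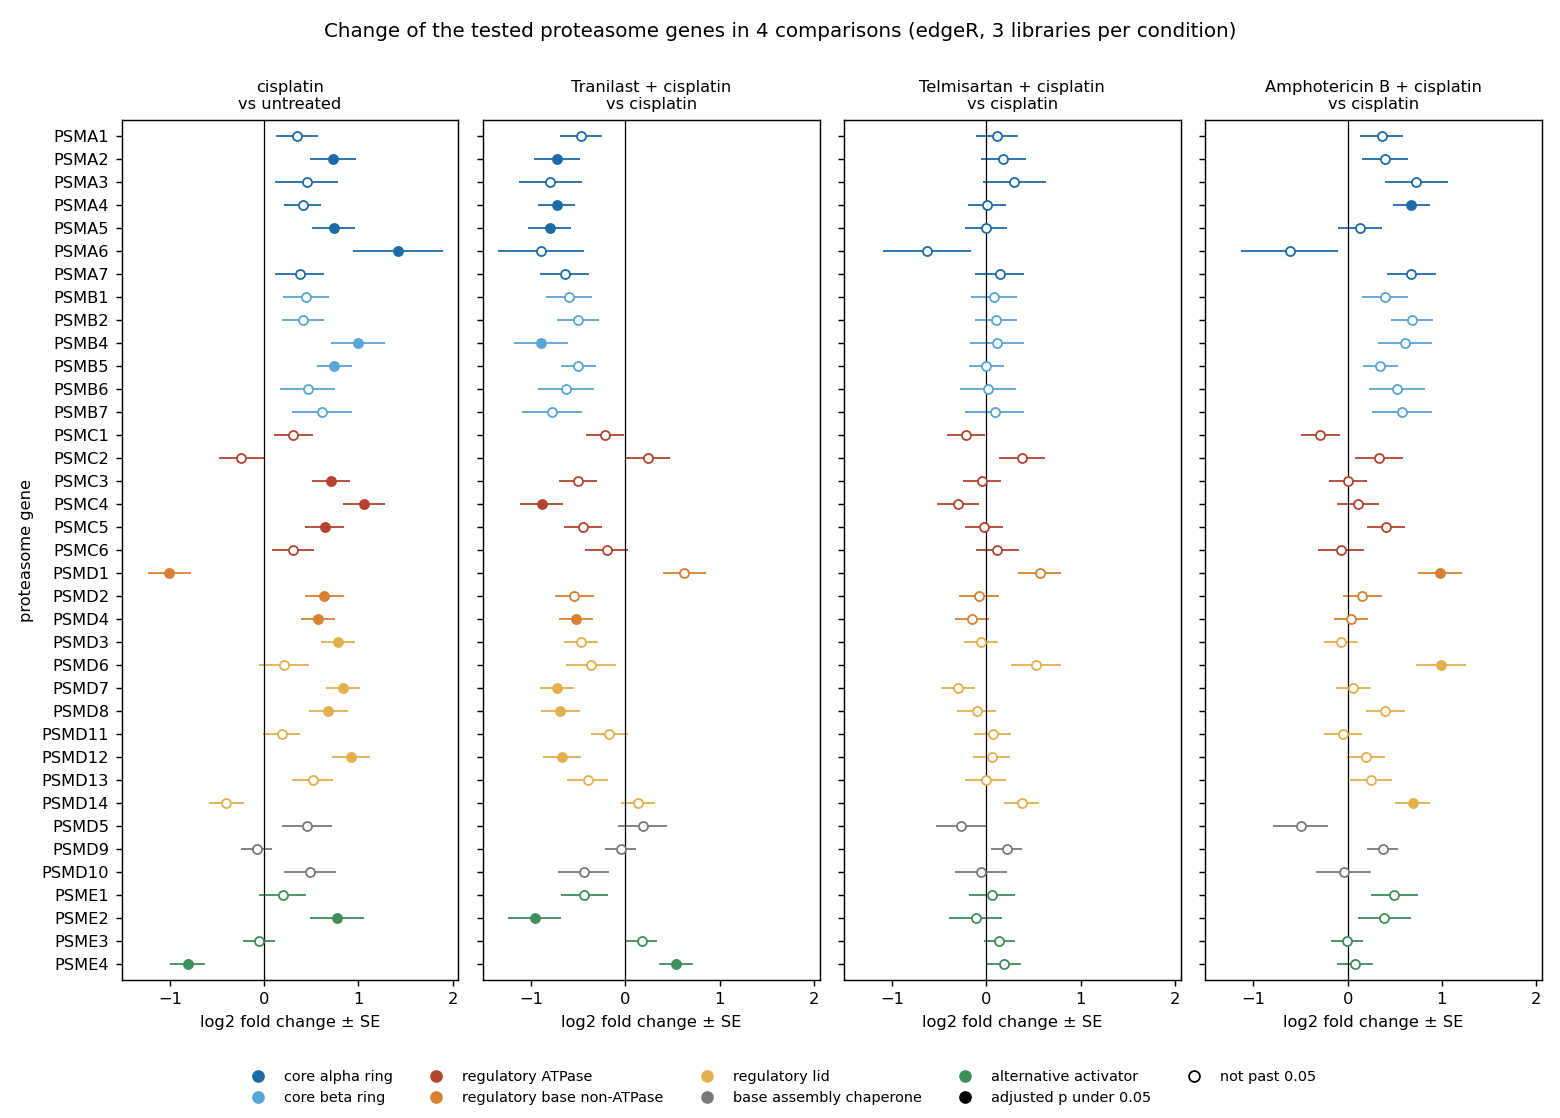
Log2 fold change ± SE (horizontal axis) of each of the 37 tested proteasome genes (vertical axis, ordered and coloured by role) in 4 comparisons, from edgeR with 3 libraries per condition. Filled points are past an adjusted p of 0.05. With cisplatin 15 points are filled to the right of 0 and 2 to the left, with Tranilast 10 are filled to the left and 1 to the right, with Telmisartan none is filled, and with Amphotericin B 4 are filled to the right.

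The length of the gene went with the change. Over the 37 genes the Spearman correlation of the log2 fold change with gene span was -0.408 (a description, since the genes share their libraries), and over 10964 genes with a span it was -0.604. The 22 proteasome genes of at most 20 kb had a median log2 fold change of 0.61, beside 0.55 over all 4279 genes of that length. For the 10 genes of 20 to 50 kb the values were 0.43 and 0.05, and for the 5 longer ones -0.40 and -0.80. The proteasome genes are short, with a median span of 18.2 kb against 29.6 kb over all genes. With an offset for gene span in the model, 7 proteasome genes rose, none fell, and the value of PSME4 moved from -0.81 to 0.0034. The median over the 37 genes was then 0.22, beside 0.04 over all genes.

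**Figure D3:**
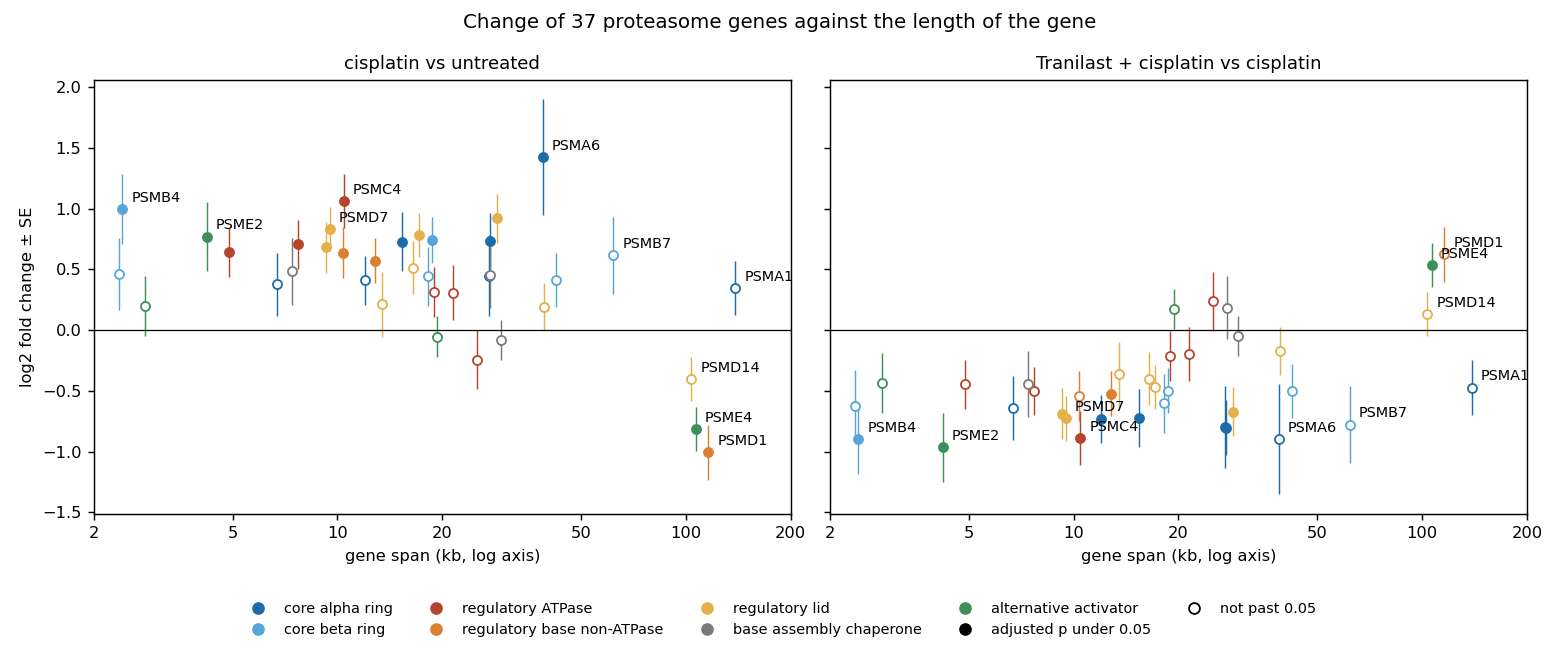
Log2 fold change ± SE (vertical axis) of the 37 tested proteasome genes against the span of the gene in kb (horizontal log axis), for cisplatin against untreated cells and for Tranilast with cisplatin against cisplatin. Filled points are past an adjusted p of 0.05, and colours mark roles. PSMD1 (116 kb) and PSME4 (107 kb) lie opposite to the shorter genes in both panels, whereas PSMA1 (139 kb) lies with the shorter ones.

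Tranilast before cisplatin was then compared with cisplatin alone. Of the proteasome genes, 10 fell and 1 rose, where 11.6% of all genes fell and 10.5% rose. The genes that fell were the alpha subunits PSMA2, PSMA4 and PSMA5, the beta subunit PSMB4, the ATPase PSMC4, the ubiquitin receptor PSMD4, the lid subunits PSMD7, PSMD8 and PSMD12, and the activator PSME2. PSME4 rose. The median log2 fold change was -0.72 over the core genes and -0.45 over the regulatory genes, and with scaling by library size alone the regulatory median took the other sign (0.02) while that of the core was -0.24. With the MT-RNR1 and MT-RNR2 covariate they were -0.12 and -0.23. Under scaling by library size alone, no proteasome gene passed as lower and 4 passed as higher.

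The largest fall was that of PSME2, which forms an activator with PSME1 (chr14:24143362-24147570). It had 234, 159 and 107 CPM with cisplatin and 74.1, 97.3 and 84.0 CPM with Tranilast and cisplatin, and fell by 0.96 on the log2 scale (SE 0.286, adjusted p = 0.0231, edgeR). The pseudogene PSME2P6 holds 834 counts beside its 4866, so its reads may be split. PSMB4 went to 182, 164 and 174 CPM with Tranilast (fell by 0.90, SE 0.287, adjusted p = 0.0330, edgeR), and PSMC4 to 70.0, 64.9 and 65.9 CPM (fell by 0.89, SE 0.224, adjusted p = 0.0103, edgeR). In all 3 genes the Tranilast libraries lay below every cisplatin library. PSME4 stood at 74.8, 78.8 and 82.8 CPM with Tranilast, above every cisplatin library (0.54 ± 0.183, adjusted p = 0.0430, edgeR). PSMD1 stood at 195, 208 and 222 CPM, also above every cisplatin library, but did not pass (0.63 ± 0.228, adjusted p = 0.0565, edgeR). Here too the length of the gene went with the change, with a Spearman correlation of 0.386 over the 37 genes and 0.536 over 10964 genes. The 5 proteasome genes over 50 kb had a median log2 fold change of 0.13, beside 0.50 over all 3733 genes of that length. An offset for gene span moved the value of PSME4 to -0.0394.

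The catalytic subunits did not pass the test with Tranilast. PSMB5 stood at 416, 427 and 415 CPM (-0.50 ± 0.185, adjusted p = 0.0602, edgeR), PSMB6 at 111, 122 and 118 CPM (-0.63 ± 0.297, adjusted p = 0.133, edgeR), and PSMB7 at 427, 482 and 429 CPM (-0.78 ± 0.317, adjusted p = 0.0843, edgeR). All of these values were below every cisplatin library, and 40.3% of all genes did not overlap between these groups. Tranilast with cisplatin was also set against untreated cells, where none of the 37 genes passed in either direction at the adjusted threshold and 1 was higher at an unadjusted p under 0.05 (edgeR), while 5.66% of all genes fell and 2.44% rose. A fit of only those 6 libraries called 4 lower and 4 higher. The number that passed as lower against cisplatin depended on single libraries. It was 4 without cisplatin replicate 1, 2 without cisplatin replicate 2, 16 without cisplatin replicate 3, 4, 3 and 1 without Tranilast replicates 1, 2 and 3, and 21 without Telmisartan replicate 3, which is in neither group and enters through the shared fit. Shares of all genes that passed in these fits are not reported here. In each of these fits 31 of the 37 genes lay below the median of all genes. Their median relative to it was between -0.39 (without cisplatin replicate 1) and -0.65 (without cisplatin replicate 3). The rise of PSME4 did not pass without any 1 of the untreated libraries, of the Tranilast libraries, or of cisplatin replicates 2 and 3.

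Telmisartan before cisplatin gave no call against cisplatin alone. No gene of all 11113 passed in either direction (0.0% lower and 0.0% higher), and among the proteasome genes 1, PSMD1, was higher at an unadjusted p under 0.05 (0.57 ± 0.230, adjusted p = 0.399, edgeR). The median log2 fold change was 0.09 over the core genes and -0.02 over the regulatory genes, with the latter at 0.04 with scaling by library size alone. The 3 libraries did not lie together. PSMB4 had 484, 391 and 174 CPM, PSMB5 675, 658 and 445 CPM, PSMB6 239, 226 and 87.8 CPM, and PSMB7 939, 1119 and 381 CPM. In all 4 genes replicates 1 and 2 lay above cisplatin replicates 2 and 3, and Telmisartan replicate 3 lay below every cisplatin library. Against untreated cells, 12 proteasome genes rose and 1, PSME4, fell, where 12.8% and 15.8% of all genes did. The count that rose was 24 without Telmisartan replicate 3, 3 and 6 without Telmisartan replicates 1 and 2, and 5 to 7 without any 1 of the untreated libraries, and PSME4 did not pass without untreated replicate 3 or without Telmisartan replicate 1 or 2.

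Amphotericin B before cisplatin was compared with cisplatin alone in the same way. Of the proteasome genes, 4 rose and none fell (0 also at an unadjusted p under 0.05, edgeR), where 4.21% of all genes rose and 9.01% fell. They were the alpha subunit PSMA4, the base scaffold PSMD1, the lid subunit PSMD6 and the lid deubiquitinase PSMD14. The median log2 fold change was 0.52 over the core genes and 0.16 over the regulatory genes, the latter -0.03 with scaling by library size alone. That scaling moved the median of all genes from -0.035 to -0.25. With the MT-RNR1 and MT-RNR2 covariate the core and regulatory medians both took the other sign, at -0.03 and -0.13. No beta subunit passed. The 3 drug comparisons share the same 3 cisplatin libraries.

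PSMD6 (chr3:64010549-64024010) had 39.8, 33.8 and 26.2 CPM with cisplatin and 61.9, 59.4 and 76.0 CPM with Amphotericin B, a log2 fold change of 0.99 ± 0.269 (adjusted p = 0.0246, edgeR). PSMD1 rose to 326, 228 and 246 CPM (0.98 ± 0.231, adjusted p = 0.0131, edgeR), values on both sides of the untreated ones. PSMD14, which spans 104 kb (chr2:161308038-161411717) and removes ubiquitin chains from substrates, had 170, 154 and 172 CPM with cisplatin and 306, 257 and 238 CPM with Amphotericin B (0.69 ± 0.185, adjusted p = 0.0228, edgeR). The groups did not overlap in any of the 3 genes, as in 24.6% of all genes. PSMB5 stood at 822, 693 and 744 CPM, PSMB6 at 306, 205 and 268 CPM, and PSMB7 at 1209, 1061 and 1162 CPM, and none of them passed (adjusted p of 0.210, 0.239 and 0.218, edgeR). Without cisplatin replicate 1 the count of genes that rose was 12, and without Telmisartan replicate 3 it was 8. It was 2 without Amphotericin B replicate 3, and 0 without cisplatin replicate 2, without cisplatin replicate 3 and without Amphotericin B replicate 1, and also 0 in a fit of only these 6 libraries.

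Against untreated cells, the Amphotericin B libraries had the most proteasome calls, with 25 genes higher and 1, PSME4, lower, where 17.6% and 23.3% of all genes were. The 25 included 12 of the 13 core genes and all 6 tested beta subunits, but 3 of 6 ATPases. PSMB4 had the largest value, 1.60 ± 0.291 (adjusted p = 0.000483, edgeR), and PSMB5 had 1.09 ± 0.187 (adjusted p = 0.000334, edgeR). The median was 1.08 over the core genes and 0.71 over the regulatory genes, beside -0.19 over all genes. With scaling by library size alone 13 were higher and 4 lower, and with a covariate for the MT-RNR1 and MT-RNR2 percentage 0 were higher. Set directly against Amphotericin B, the Tranilast libraries had 24 proteasome genes lower and none higher (2 at an unadjusted p under 0.05, edgeR), where 16.4% and 19.7% of all genes were. The medians were -1.15 over the core genes and -0.56 over the regulatory genes, the latter 0.10 with scaling by library size alone. The covariate left 0 lower in that comparison.

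The core and the regulatory particle can be set against each other within a library, where the scaling between libraries cancels apart from the prior count. The mean log2 CPM over the 13 core genes minus that over the 17 regulatory genes, taken relative to the mean of the untreated libraries, was -0.03, -0.02 and 0.05 in those libraries themselves. It was 0.40, 0.14 and 0.02 in the cisplatin replicates 1 to 3, and 0.31, 0.38 and 0.48 with Amphotericin B. It was -0.12, -0.22 and -0.05 for the Tranilast libraries and 0.38, 0.18 and -0.08 for the Telmisartan libraries. The Amphotericin B libraries all lay above the untreated and the Tranilast ones, and the cisplatin and Telmisartan libraries spread over most of the range. The mean and the median differ in sign for cisplatin against untreated cells. The mean of the core exceeded that of the regulatory particle by 0.19 ± 0.196 (SD, n = 3), while the median fold change of the core minus that of the regulatory particle was -0.11.

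The libraries in which the core genes stood higher were those with more mitochondrial ribosomal RNA. The 6 libraries with over 10% of it had values of 0.18 to 0.48, and the 9 with 5.61% or less had values of -0.22 to 0.14. The share was at most 2.53% in untreated and Tranilast libraries and at least 3.41% in cisplatin, Telmisartan and Amphotericin B libraries. Between these 2 sides the share and the condition cannot be told apart, since the ranges do not overlap. This includes cisplatin against untreated cells and Tranilast against cisplatin. Cisplatin replicate 1 and Telmisartan replicate 2 lay within the range of the Amphotericin B libraries in that share. In core minus regulatory, cisplatin replicate 1 (0.40) lay within their range, and Telmisartan replicate 2 (0.18) lay below it. With the share as a covariate, 8 proteasome genes rose and 4 fell with cisplatin, 3 fell and 1 rose with Tranilast, and none rose with Amphotericin B. The share of all counts that fell on the proteasome genes varied little, from 0.928% to 1.15% of a library, with means of 0.945% in untreated cells, 1.02% after cisplatin alone, and 1.01%, 1.06% and 1.10% after Tranilast, Telmisartan and Amphotericin B. On the TMM scale the same sums were 8140 ± 117, 11473 ± 1859, 8171 ± 185, 11321 ± 2856 and 14020 ± 1116 CPM (SD, n = 3).

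**Figure D4:**
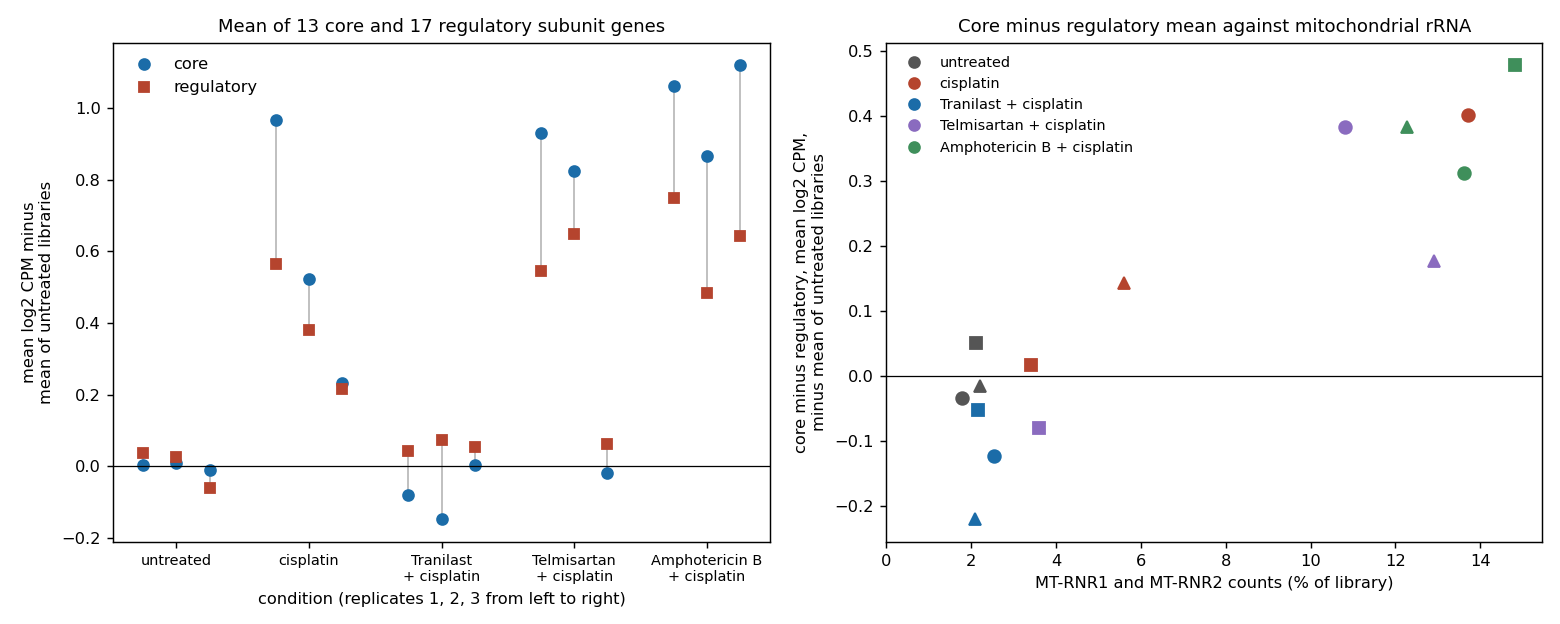
Left, mean log2 CPM of 13 core genes (circles) and 17 regulatory genes (squares) in each library, minus the mean of the untreated libraries (vertical axis), by condition and replicate (horizontal axis). Right, the core mean minus the regulatory mean (vertical axis) against the share of MT-RNR1 and MT-RNR2 counts in percent (horizontal axis), with colours for conditions and symbols for replicates 1 (circle), 2 (triangle) and 3 (square). Cisplatin replicate 1 (0.40 at 13.7%) lies with the Amphotericin B libraries, and Telmisartan replicate 3 (-0.08 at 3.61%) with the Tranilast libraries.

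Members did not all move together. Over the 15 libraries the median Pearson r of a gene's log2 CPM with those of the other tested proteasome genes was 0.90 for PSMB4, and 0.898 for PSME2, and it was negative for PSME4 (-0.66), PSMD5 (-0.53), PSME3 (-0.28) and PSMC1 (-0.02). These values are a description and share the libraries. Some members overlap other genes in the genome or have pseudogenes by name, and the use of the strand in counting is not given in the sources used here. DNAJC2, which overlaps PSMC2 on the other strand, held 8570 counts beside the 1379 of PSMC2. FTSJ3 overlaps PSMC5 (11751 beside 12096), BECN1 overlaps PSME3 (3510 beside 4394), and MRPL32 overlaps PSMA2 (1245 beside 1885), and how reads in the overlaps were assigned was not tested. PSMC1 has 42607 counts beside 1658 for its pseudogene PSMC1P1.

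Other genes of the pathway were read from lists of subunits and helpers that the symbol rule leaves out. Of 12 further subunits and assembly factors, 4 rose and 1 fell with cisplatin (21.1% and 23.6% of all genes). The early core assembly factor PSMG3 rose (1.11 ± 0.178, adjusted p = 0.000120, edgeR), as did the ubiquitin receptor ADRM1, the lid component SEM1 and the core maturation factor POMP, and the adaptor ECPAS fell by 1.42 on the log2 scale (SE 0.239, adjusted p = 0.000176, edgeR). With Tranilast SEM1, PSMG3, POMP and ADRM1 were lower than with cisplatin alone (11.6% of all genes), SEM1 by the most, where 579, 349 and 273 CPM stood against 150, 151 and 147 CPM (fell by 1.42, SE 0.292, adjusted p = 0.00399, edgeR), and none was higher. With Amphotericin B only PSMG1 passed, as higher (0.83 ± 0.229, adjusted p = 0.0267, edgeR). TXNL1, next in that order, did not pass (0.55 ± 0.194, adjusted p = 0.0648, edgeR).

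Of 5 enzymes that act on the proteasome, 3 fell with cisplatin and none rose (23.6% and 21.1% of all genes). The length of the gene went with the change over all genes, and its part in this and the other lists was not tested. The deubiquitinase USP14 had 424, 435 and 477 CPM in untreated cells, 137, 136 and 214 CPM with cisplatin and 296, 345 and 345 CPM with Tranilast and cisplatin. It fell by 1.45 on the log2 scale with cisplatin (SE 0.239, adjusted p = 0.000147, edgeR) and was higher with Tranilast than with cisplatin alone (1.01 ± 0.237, adjusted p = 0.00716, edgeR). The ligase UBE3A fell by 1.12 (SE 0.221, adjusted p = 0.000680, edgeR) and was also higher with Tranilast (1.005 ± 0.221, adjusted p = 0.00543, edgeR). Of the 5 enzymes, 3 were higher with Tranilast (10.5% of all genes), and none passed with Amphotericin B, where HUWE1 had 0.52 ± 0.265 and UBE3A -0.25 ± 0.227 (adjusted p of 0.188 and 0.464, edgeR).

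Of 11 genes of the NRF1 pathway, 4 rose and 2 fell with cisplatin (21.1% and 23.6% of all genes). NFE2L1, which codes for NRF1, had 159, 144 and 152 CPM in untreated cells and 81.2, 80.4 and 85.8 CPM with cisplatin. The groups did not overlap, as in 53.5% of all genes, and NFE2L1 passed as lower (adjusted p = 0.000955, edgeR). With Amphotericin B it was lower again, at 54.0, 55.3 and 36.5 CPM (adjusted p = 0.0176, edgeR), and with Tranilast it stood at 105, 103 and 118 CPM (adjusted p = 0.117, edgeR). SEL1L, a part of the ligase that handles NRF1 at the endoplasmic reticulum, fell the most, from 92.1, 92.1 and 96.0 CPM to 16.2, 6.87 and 5.56 CPM (adjusted p = 8.02e-06, edgeR). MAFG, a small partner of NRF1 on DNA, rose from 32.8, 28.5 and 32.6 CPM to 120, 133 and 73.9 CPM (adjusted p = 2.60e-05, edgeR). It was lower than with cisplatin alone both with Tranilast (fell by 1.34, SE 0.235, adjusted p = 0.00198, edgeR) and with Amphotericin B (fell by 1.24, SE 0.245, adjusted p = 0.00654, edgeR), as was its relative MAFK (adjusted p of 0.0106 and 0.00654, edgeR). The level of NRF1 protein was not measured.

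Of 12 ubiquitin genes and shuttle factors, 3 rose and 3 fell with cisplatin, near the shares over all genes (21.1% and 23.6%), with the autophagy receptor SQSTM1 (1.12 ± 0.188, adjusted p = 0.000178, edgeR) and the shuttle factor UBQLN1 (fell by 0.71, SE 0.152, adjusted p = 0.00121, edgeR) at the smallest adjusted p. With Tranilast 2 genes passed in each direction (11.6% lower and 10.5% higher over all genes), and the activating enzyme UBA6 was among the higher ones (0.81 ± 0.221, adjusted p = 0.0160, edgeR). With Amphotericin B 2 genes were higher and none was lower (4.21% and 9.01% of all genes), and the ubiquitin gene UBB was among the higher ones (0.97 ± 0.301, adjusted p = 0.0418, edgeR). Of 12 genes of antigen processing and interferon, 6 were tested, and 4 fell and 1 rose with cisplatin (23.6% and 21.1% of all genes). B2M, the light chain of class I molecules, rose (0.95 ± 0.239, adjusted p = 0.00403, edgeR) and was lower with Tranilast (fell by 1.21, SE 0.240, adjusted p = 0.00343, edgeR), while the trimming peptidase ERAP1 fell with cisplatin by 1.88 (SE 0.527, adjusted p = 0.00816, edgeR). NLRC5, an activator of class I genes, did not pass with Tranilast (1.03 ± 0.435, adjusted p = 0.0946, edgeR) or with Amphotericin B (1.34 ± 0.476, adjusted p = 0.0654, edgeR), nor did IRF1 with Amphotericin B (-0.85 ± 0.328, adjusted p = 0.0894, edgeR).

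With Telmisartan none of these lists had a gene that passed against cisplatin alone. The smallest adjusted p values of those reported belonged to MAFK (-0.60, 0.332) and MAFG (-0.64, 0.370), to PSMG3 (-0.48, 0.376) and PSMG1 (0.52, 0.424), to UCHL5 (0.31, 0.584) and UBE3A (0.35, 0.622), to UBB (0.41, 0.677), and to B2M (-0.36, 0.638), each with its log2 fold change and its adjusted p from edgeR.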

How the data were processed

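IGROV-CP20 cells were analyzed by QuantSeq 3′ mRNA sequencing (100 ng of RNA, reads of 75 bp). The tables deposited by the authors list, for each Ensembl gene identifier, an unnormalized count of reads. The submitters' processing notes name STAR 2.3.0, HTSeq and the build hg19, and the role of each, the annotation and the use of the strand are not given in the sources used here. Gene names, roles and coordinates were matched by identifier to GENCODE 29 on GRCh38, which is not the build of the files.

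Differential expression was tested with edgeR 4.0.16 (R 4.3.3) by its quasi-likelihood test on the counts. The filterByExpr function by condition, TMM factors and 1 fit over all 15 libraries were used, with Benjamini-Hochberg adjustment over 11113 genes and a threshold of 0.05. An SE was taken from each log2 fold change by dividing its absolute value by √F. Log2 CPM used a prior count of 2. Procedures were tested on simulated data. Summaries used Python 3.11.15.

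Genes with values in every library were PSMD7, the 3 largest increases and 3 largest decreases past the threshold in each of the comparisons of cisplatin with untreated cells and of each drug with cisplatin, the catalytic subunits and their inducible counterparts. NFE2L1 was also named, as were the 2 genes of lowest adjusted p in every pathway list and comparison, some of which are not reported here. Members and lists were chosen with earlier results of these data known. The labels call the replicates biological, and the study describes them as 3 experiments.

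Alternatives were the likelihood ratio test, DESeq2 1.42.0, limma-voom (limma 3.58.1), RLE factors, library size only, CPM above 1 in at least 3 libraries, no filter beyond 1 count, only the 6 libraries compared, a replicate block, a gene span offset, both together, mitochondrial ribosomal RNA as a covariate, a threshold of 0.01, and each library left out.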

Additional observations from a re-analysis of the deposited data

How the results depend on the processing

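Counts of proteasome genes and the core minus regulatory medians were recomputed under every alternative. Counts are given where they moved by over 1.5 times, and medians where they moved by more than the spread between replicates, and the cause was not tested. The percentages of all genes that passed under each alternative are not reported here, so these counts cannot be set against them. Medians for Telmisartan are given as well, though these moves stayed within that spread (0.215). Its core minus regulatory median of 0.11 was 0.042 with the mitochondrial covariate and 0.0347 with the gene span offset. It was 0.0291 with the replicate block added to that offset. Drugs are compared with cisplatin alone unless stated. With scaling by library size only, 6 rose with cisplatin, 0 fell and 4 rose with Tranilast, 13 rose and 4 fell with Amphotericin B against untreated cells, 4 rose and 2 fell with Telmisartan against untreated cells, and 9 were lower and 5 higher with Tranilast against Amphotericin B. Medians of all genes under that scaling were -0.36 with cisplatin and 0.46 with Tranilast. They were -0.75 with Amphotericin B and -0.27 with Telmisartan against untreated cells, and 0.81 with Tranilast against Amphotericin B. With the gene span offset, 7 rose and 0 fell with cisplatin, 4 fell and 0 rose with Tranilast, 6 rose and 0 fell with Telmisartan against untreated cells, 0 fell with Amphotericin B against untreated cells, and the core minus regulatory median with cisplatin was 0.22. With the mitochondrial ribosomal RNA share as covariate, 8 rose and 4 fell with cisplatin, 3 fell with Tranilast, 0 rose with Amphotericin B against either control, 2 rose and 4 fell with Telmisartan against untreated cells, 1 rose and 1 fell with Tranilast against untreated cells, and 0 were lower with Tranilast against Amphotericin B. The core minus regulatory medians were then -0.38 with cisplatin, 0.11 with Tranilast and 0.10 with Amphotericin B. At an adjusted p of 0.01, 7 rose with cisplatin, 0 fell and 0 rose with Tranilast, 0 rose with Amphotericin B, and 5 rose and 0 fell with Telmisartan against untreated cells. In fits of only 6 libraries, 0 rose with Tranilast or Amphotericin B, and 4 rose and 4 fell with Tranilast against untreated cells. Higher calls with Tranilast were 2 by the likelihood ratio test and limma-voom and 0 with RLE factors. Against Amphotericin B, 1 was higher with Tranilast by the likelihood ratio test and with no filter, and with no filter 2 rose with Amphotericin B and 0 fell with Telmisartan against untreated cells. DESeq2 and the filter on CPM moved no count by over 1.5 times.

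Whether replicate numbers pair the samples cannot be decided from 3 libraries per condition. Correlations of deviations between libraries of the same number ranged from -0.235 to 0.631, and in 22 of 60 cases a library correlated best with its own number. With the replicate block, 2 rose with Tranilast and no other count moved by over 1.5 times. With the replicate block and the gene span offset together, 7 rose and 0 fell with cisplatin, 4 fell and 0 rose with Tranilast, 7 rose with Amphotericin B, 0 fell with Amphotericin B and 6 rose and 0 fell with Telmisartan against untreated cells, and the core minus regulatory median with cisplatin was 0.20. PSME4 took the other sign only with the gene span offset, at 0.0034 with cisplatin (0.0040 with the block) and -0.0394 with Tranilast (-0.040 with the block).

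Leaving out each library gave 2 to 3 lower and 7 to 19 higher with cisplatin, 1 to 21 lower and 0 to 2 higher with Tranilast, 0 to 12 higher with Amphotericin B and 0 to 1 higher with Telmisartan. Against untreated cells it gave 3 to 24 higher and 0 to 1 lower with Telmisartan and 21 to 25 higher with Amphotericin B, and Tranilast against Amphotericin B gave 20 to 27 lower and 0 to 2 higher. The core minus regulatory medians ranged from -0.25 to 0.01 with cisplatin, from -0.37 to -0.0385 with Tranilast, from 0.28 to 0.52 with Amphotericin B and from -0.04 to 0.27 with Telmisartan. Depth limits PSMA6, with at most 19 counts in a library.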
